A study of Homo sapiens with 4 samples.

Results

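The 43 genes described here are 18 cytosolic aminoacyl-tRNA synthetases, without those for phenylalanine, and transcripts commonly assigned to the ATF4 program. That program covers serine, one-carbon, asparagine and transsulfuration enzymes, amino acid transporters, stress transcription factors and stress effectors. All 43 were chosen by name from known pathway membership, with results of this same comparison already in view. They were found among the 16878 genes of the tables, the synthetases under their older symbols (AARS for AARS1, and so on). All 43 also averaged 1 FPKM or more across the 4 libraries, the limit above which 12191 genes were tested. RNA was sequenced from PANC-1, a long-established human line grown from a carcinoma of the pancreas, in 2 groups of 2 libraries. One group had been transfected with a control and is called Control, and the other with small interfering RNA against SIRT1 and is called siSIRT1. Both were collected 48 h after transfection. SIRT1 is an NAD-dependent protein deacetylase, and the comparison asks which transcripts depend on it in this cell line. The labels do not say whether the 2 libraries of a group came from separate cultures, so p-values measure only the spread between these libraries, which may be technical. What RNA the control transfection carried is not given in the sources used here.

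Aminoacyl-tRNA synthetases join each amino acid to its transfer RNA before translation. When amino acids run short or unfolded protein accumulates, kinases of the integrated stress response phosphorylate the translation factor eIF2, general translation slows, and the transcription factor ATF4 is made from its mRNA at a higher rate through upstream open reading frames. ATF4, often as a dimer with a C/EBP protein, raises the transcription of synthetases, amino acid enzymes and transporters, and of regulators such as DDIT3 (CHOP) and TRIB3 that adjust or end the response. Because ATF4 is set largely at translation, its transcript level is not a measure of its protein.

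The values are FPKM, fragments scaled to the length of the transcript and to the total of the library, so levels of different genes can be set side by side. Differences between groups are given as log2 fold changes of FPKM + 1, siSIRT1 minus Control, from 1 limma fit across all tested genes, and a gene passed where its Benjamini-Hochberg adjusted p over all genes was under 0.05. Libraries held an estimated 8840000 to 9350000 reads, and between 12123 and 12171 genes reached 1 FPKM. In this total RNA from cultures, fewer cells of one kind and less RNA per cell cannot be told apart. The keratins of simple epithelium were abundant with the exception of KRT7, and genes of acinar and stromal cells were at or near 0. Of the keratins, KRT8 lay at 2164 to 2745 FPKM, KRT18 at 1484 to 1914, KRT19 at 313 to 394 and KRT7 at 2.89 to 4.04, and siSIRT1 stood at 119% to 120% of Control for KRT8, KRT18 and KRT19. The acinar genes PRSS1, CPA1 and CELA3A and the stromal and endothelial genes DCN, LUM and VWF did not exceed 0.150 FPKM in any library. PECAM1 lay at 0.590 to 0.750 FPKM and PTPRC at 0.970 to 1.29. CD68, a lysosomal protein used as a macrophage marker, was at 63.0 and 60.8 FPKM in Control, against 42.3 and 39.1 in siSIRT1, and it was the only one of the 6 leukocyte, endothelial and fibroblast genes whose groups did not overlap. The part of the keratins and of CD68 in the results below was not tested.

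SIRT1 itself was at 10.5 and 10.2 FPKM in Control, against 1.80 and 2.05 FPKM in siSIRT1, with means of 10.4 ± 0.148 and 1.92 ± 0.177 (SD, n = 2 each). The log2 fold change was -1.96, with a limma adjusted p of 1.33e-05. The siRNA strand listed by the study for this target is shown because its matches can be searched.
siSIRT1: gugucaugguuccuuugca
These 19 bases occurred in 4 of 6 annotated SIRT1 transcripts and in none (0) of the 703 annotated transcripts of the 43 genes. Only full-length matches were searched.

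In siSIRT1, most of the 43 transcripts were lower. By the threshold across all genes, 33 of 43 were lower and 4 were higher, while 6 did not pass. Among all tested genes 13.1% were called lower and 24.0% higher, but the 43 were chosen with this contrast in view, so nothing is read from the difference. Both siSIRT1 values lay below both Control values in 37 of the 43 genes, as they did for 25.2% of all tested genes. Both lay above in 5 of the 43 (43.8% of all tested genes). SHMT2 was the 1 gene whose groups overlapped. The median log2 fold change of the 43 was -0.36, beside 0.07 over all tested genes. The division into calls higher and lower over all genes moved with scaling, from 2930 higher and 1591 lower as deposited to 2023 higher and 2053 lower with median-of-ratios scaling, and the median of the 43 was then -0.45.

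**Figure D1:**
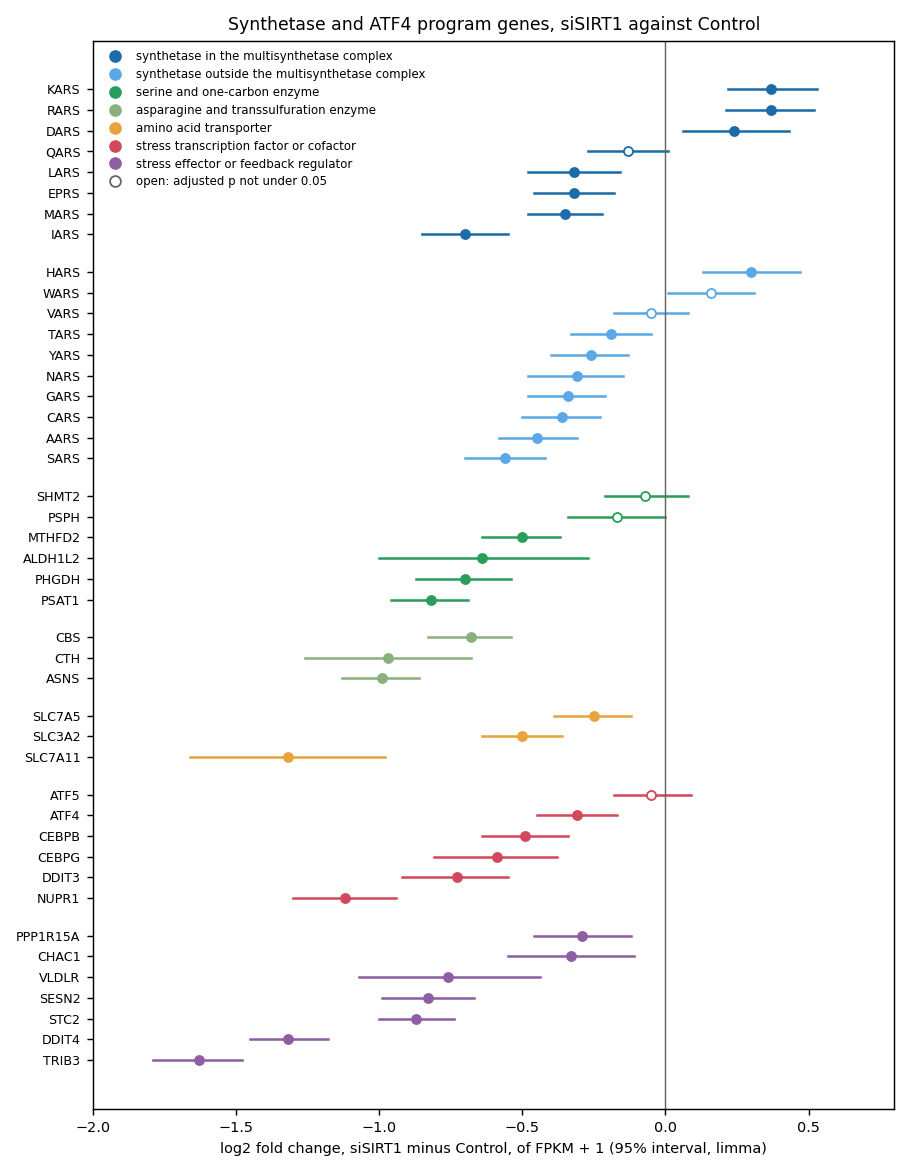
Log2 fold change of FPKM + 1, siSIRT1 minus Control, for the 43 genes (horizontal axis), grouped and coloured by role; points are limma estimates, bars are 95% intervals, and open points did not pass the threshold across all genes. The estimates run from -1.63 for TRIB3 to 0.37 for RARS and KARS, and the 5 points to the right of 0 are all synthetases.

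Medians and sums by role are given as a description, since the genes of each role were chosen with this contrast in view. Over the 25 genes that are not synthetases the median log2 fold change was -0.68, with 22 called lower and 3 not called. Over the 18 synthetases it was -0.29, with 11 lower, 4 higher and 3 not called. Among all tested genes 13.1% were called lower and 24.0% higher, and these shares belong beside the counts of each role below. Nothing is read from a difference between a role and these shares. Summed FPKM in siSIRT1 was 48.2% of Control for the 7 stress effectors, 55.5% for ASNS, CTH and CBS, and 67.1% for the 6 transcription factors. It was 69.9% for the 6 serine and one-carbon enzymes, 78.0% for the 3 transporters and 84.2% for the 18 synthetases. Such a sum follows its most abundant genes. The 3 transporters stood at 83.9% (SLC7A5), 70.7% (SLC3A2) and 34.7% (SLC7A11) of Control.

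These were abundant transcripts in Control cells. Their median Control level was 61.5 FPKM, beside 10.01 FPKM over all tested genes, 13 of them reached 100 FPKM and 3 lay under 10. The highest were SLC7A5 at 333 ± 2.11 FPKM and SLC3A2 at 208 ± 9.95 (SD, n = 2), the subunits of a large neutral amino acid exchanger. GARS, ATF4, MARS, DDIT4 and NUPR1 followed at 184 to 190 FPKM. The order of GARS and ATF4 is not resolved, since the Control range of GARS (194 and 187) reached that of ATF4 (189 and 187). Both lay above MARS, DDIT4 and NUPR1, whose ranges overlapped and whose order is not resolved. Of the 42 pairs of neighbours in the whole order, 13 had overlapping Control ranges. The lowest were VLDLR at 1.70 ± 0.106, ALDH1L2 at 2.80 ± 0.622 and CTH at 4.17 ± 0.354 FPKM.

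The promoters were read for the core of the C/EBP-ATF composite element, the sequence that ATF4 dimers are known to read. RefSeq promoter windows (GRCh38.p14, 250 bases before to 50 after each listed start) were matched for 34 of the 43 genes, and ALDH1L2, DARS, LARS, NUPR1, PSPH, SHMT2, SLC7A11, VARS and YARS had none. The 8 letters TGATGNAA were searched on both strands in any window of a gene. They occurred in 11 of 34 genes (32.4%), beside 1217 of 27305 genes with windows (4.46%). The 43 were chosen in part as genes assigned to the ATF4 program, so nothing is read from this difference. The 27305 also include genes that were not tested here. The 11 matches are shown with their surroundings, on the strand that carries the motif and with the motif in capitals, because they are what the holders share beyond their names.
ASNS: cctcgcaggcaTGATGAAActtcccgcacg
AARS: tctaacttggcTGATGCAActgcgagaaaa
CARS: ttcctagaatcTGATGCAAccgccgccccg
GARS: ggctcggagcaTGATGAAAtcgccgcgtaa
IARS: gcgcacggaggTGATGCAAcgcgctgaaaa
MARS: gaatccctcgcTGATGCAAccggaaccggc
NARS: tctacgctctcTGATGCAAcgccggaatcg
TARS: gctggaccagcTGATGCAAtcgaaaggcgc
CEBPG: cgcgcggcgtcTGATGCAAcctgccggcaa
CHAC1: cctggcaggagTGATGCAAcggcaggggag
SLC3A2: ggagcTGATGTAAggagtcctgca

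The free letter was C in 8 of these 11 matches, A in 2 and T in 1. In the order shown, the stretches lie at chr7:97872458-97872487, chr16:70289675-70289704, chr11:3057407-3057436, chr7:30594834-30594863, chr9:92293692-92293721, chr12:57488053-57488082, chr18:57621804-57621833, chr5:33440956-33440985, chr19:33374060-33374089, chr15:40953251-40953280 and chr11:62881725-62881748. Positions are those of the first base of the match along the gene. That base stood upstream of the start in 8 genes and downstream of it in NARS, SLC3A2 and TARS. It lay at 2 to 209 bases, and in 8 of the 11 within 50 bases of a start. In CARS and MARS, at 2 and 4 bases upstream, the 8 letters ran across the start. The match read on the strand of the gene in ASNS, CEBPG and NARS and on the opposite strand in the other 8.

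Of the 14 cytosolic synthetases with a window, 7 held the letters. All 11 holders were lower in siSIRT1, with log2 fold changes from -0.99 to -0.19 and a median of -0.36. The 23 genes with a window and no match ran from -1.63 to 0.37, with a median of -0.50 and 19 estimates below 0. RARS, KARS and HARS, which were higher in siSIRT1, were among those without a match, and so were TRIB3 and DDIT4. Among tested genes outside the 43, 43 of 251 holders (17.1%) and 1217 of 9699 others (12.5%) were called lower. Their median log2 fold changes were 0.03 and 0.08. The 251 include genes of the other lists described below, which were chosen with earlier results known, so nothing is read from this difference. A match describes letters in a window, and no match says nothing about ATF4 at the gene. With the longer form TGATGNAAT the letters occurred in 2 of the 34 genes, and TGACGNAA occurred in 0.

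Among the 6 transcription factors and cofactors, 5 were called lower and ATF5 did not pass. ATF4 transcript was at 189 and 187 FPKM in Control, against 158 and 145 FPKM in siSIRT1. Both siSIRT1 libraries were lower than both Control libraries, at 80.5% of the Control mean, with a log2 fold change of -0.31 and a 95% interval of -0.45 to -0.17. The call for ATF4 was lost when either Control library was left out, with log2 fold changes of -0.30 and -0.32. NUPR1, a small stress-induced chromatin protein, differed most in this group, with 185 and 182 FPKM in Control, against 90.9 and 77.2 FPKM in siSIRT1. Its groups were far apart, and siSIRT1 held 45.8% of the Control level (log2 fold change -1.12, interval -1.30 to -0.94).

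DDIT3, which encodes the pro-apoptotic factor CHOP, was at 48.3 and 43.1 FPKM in Control, against 28.3 and 25.8 FPKM in siSIRT1, a log2 fold change of -0.73. CEBPB and CEBPG, which encode 2 of the C/EBP proteins that can pair with ATF4, were both lower without overlap. CEBPD, a C/EBP gene outside the 43, was called higher (log2 fold change 0.63). CEBPB went from 46.5 and 46.9 FPKM to 31.8 and 34.2 FPKM (log2 fold change -0.49), and CEBPG from 19.5 and 20.3 FPKM to 11.8 and 14.0 FPKM (-0.59). ATF5, a relative of ATF4 with its own translational control, stayed within a narrow range. It was at 55.4 and 54.9 FPKM in Control, against 54.7 and 52.1 FPKM in siSIRT1, with an interval of the log2 fold change from -0.18 to 0.09.

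All 7 stress effectors and feedback regulators were called lower, and TRIB3 and DDIT4 were among the largest differences of the 43. TRIB3, a pseudokinase that binds ATF4 and CHOP and limits their activity, was at 59.2 and 58.9 FPKM in Control, against 17.6 and 19.2 FPKM in siSIRT1. The Control libraries agreed closely, and siSIRT1 held 31.1% of their level (log2 fold change -1.63, SE 0.07). DDIT4 (REDD1), an inhibitor of mTORC1, was at 185 and 183 FPKM in Control, against 76.1 and 70.7 FPKM in siSIRT1, or 39.9% (log2 fold change -1.32). SESN2, a leucine sensor that also restrains mTORC1, was at 29.5 and 29.4 FPKM versus 16.2 and 16.1 FPKM. Within each group its libraries were nearly identical, and the log2 fold change was -0.83.

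STC2, a secreted glycoprotein, went from 121 and 119 FPKM to 65.6 and 64.7 FPKM, a log2 fold change of -0.87. VLDLR, the very low density lipoprotein receptor, was the least abundant of the 43, with 1.62 and 1.77 FPKM in Control, against 0.580 and 0.610 FPKM in siSIRT1. These values rest on about 137, 151, 47 and 51 reads, and the pseudocount compresses its log2 fold change, which was -0.76 with 1 added and -1.37 with 0.1 added. VLDLR reached the limit of 1 FPKM for testing only through its Control libraries. Such a filter favours a lower call, so nothing is read from the call for VLDLR. Smaller differences were seen for PPP1R15A (GADD34), which returns the phosphatase to eIF2, and for CHAC1, which degrades glutathione. PPP1R15A was at 20.7 and 19.8 FPKM versus 16.5 and 16.2 FPKM (log2 fold change -0.29). CHAC1 was at 33.5 and 31.3 FPKM versus 28.1 and 23.0 FPKM (-0.33). Both calls were lost without either Control library, at -0.26 and -0.32 for PPP1R15A and at -0.29 and -0.38 for CHAC1, and the call for CHAC1 also without the second siSIRT1 library, at -0.20, without the filter on low values and without the trend.

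**Figure D2:**
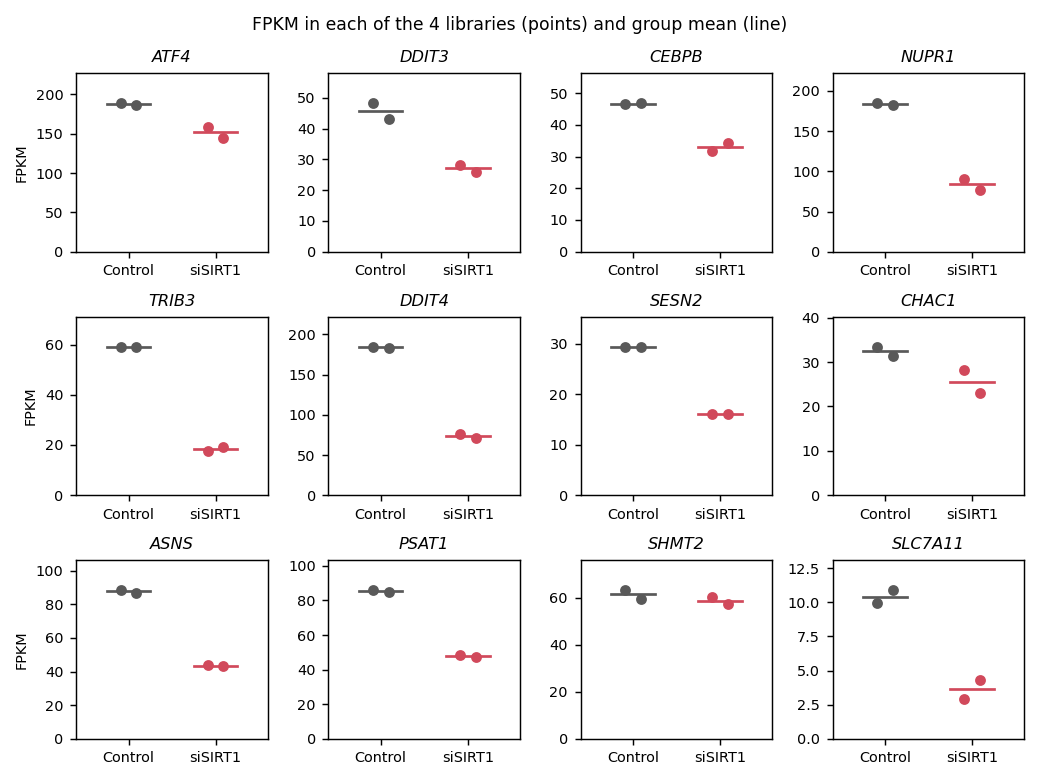
FPKM (vertical axes, each from 0) of 12 of the genes in the 2 Control and 2 siSIRT1 libraries; points are libraries and lines are group means. ATF4 and CHAC1 differ modestly, TRIB3 lies at 59.2 and 58.9 in Control against 17.6 and 19.2 in siSIRT1, and SHMT2 is the gene whose groups overlap.

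Since a change of scale cancels in a ratio of 2 transcripts of the same library, several targets were set against ATF4 transcript. The ratio of ASNS to ATF4 in FPKM was 0.467 and 0.466 in Control, against 0.279 and 0.297 in siSIRT1. That of TRIB3 to ATF4 was 0.312 and 0.315 against 0.111 and 0.132. For DDIT4 the ratio was 0.978 and 0.977 against 0.483 and 0.486. These transcripts were thus lower in siSIRT1 by more than ATF4 transcript was. DDIT3 to ATF4 differed less, at 0.255 and 0.231 against 0.180 and 0.177. CHAC1 to ATF4 overlapped between groups, at 0.177 and 0.167 against 0.178 and 0.158.

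ASNS, CTH and CBS were all called lower. ASNS, which makes asparagine and is a classical ATF4 target with the motif shown above 68 bases upstream of its start, was at 88.5 and 87.0 FPKM in Control, against 44.0 and 43.1 FPKM in siSIRT1. The spread within each group was small beside the distance between them, and 49.7% of the Control level remained (log2 fold change -0.99, interval -1.13 to -0.86). CTH, which releases cysteine from cystathionine, was at 3.92 and 4.42 FPKM versus 1.59 and 1.70 FPKM, from about 72, 82, 28 and 31 reads. CBS, which makes cystathionine from homocysteine and serine, was at 90.0 and 89.1 FPKM versus 57.8 and 53.2 FPKM. CBS is uncertain in one respect, because a near-identical copy, CBSL, is listed at 0 in every library, so reads of both would stand under CBS. The log2 fold changes were -0.97 for CTH and -0.68 for CBS.

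Of the 6 serine and one-carbon enzymes, 4 were called lower, and PSPH and SHMT2 did not pass. The estimates were larger for the first 2 steps of serine synthesis than for the last. PHGDH, the entry enzyme, was at 109 and 106 FPKM in Control, against 70.0 and 61.9 FPKM in siSIRT1, a log2 fold change of -0.70. PSAT1, the next enzyme, was at 86.0 and 84.6 FPKM versus 48.3 and 47.1 FPKM (-0.82). PSPH, which completes serine, was at 30.2 and 32.3 FPKM versus 28.7 and 26.6 FPKM. Its groups did not overlap, but the log2 fold change of -0.17 did not pass as deposited and did pass with median-of-ratios, quantile or equal-sum scaling. The ratio of PSAT1 to PSPH in FPKM was 2.84 and 2.62 in Control, against 1.68 and 1.77 in siSIRT1.

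In the mitochondrial folate pathway, MTHFD2, the methylenetetrahydrofolate dehydrogenase, was at 119 and 122 FPKM in Control, against 82.5 and 86.5 FPKM in siSIRT1 (log2 fold change -0.50). SHMT2, which feeds the pathway from serine, was at 63.3 and 59.7 FPKM versus 60.2 and 57.2 FPKM, with an interval of the log2 fold change from -0.21 to 0.08. ALDH1L2, which oxidises mitochondrial formyl-tetrahydrofolate, was weakly expressed, at 2.36 and 3.24 FPKM versus 1.24 and 1.63 FPKM. Its groups did not overlap, but its 2 Control libraries were further apart in proportion than those of any other of the 43, and its call was lost without the second Control library (log2 fold change -0.64 with all libraries, -0.47 without it), without the first siSIRT1 library (-0.52) and without the filter on low values. Against the cytosolic enzyme MTHFD1, MTHFD2 stood at a ratio of 3.66 and 3.58 in Control, against 2.06 and 2.23 in siSIRT1. The ratio of SHMT2 to its cytosolic counterpart SHMT1 was 4.20 and 4.54 against 3.65 and 4.05, a narrow separation.

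The 3 transporter genes encode a pair of exchangers with a shared heavy chain, and all 3 were called lower by unequal amounts. SLC7A11 (xCT), which imports cystine, was at 9.92 and 10.9 FPKM in Control, against 2.94 and 4.29 FPKM in siSIRT1. The siSIRT1 libraries differed from each other, yet both lay far below Control, at 34.7% on average (log2 fold change -1.32, SE 0.15, interval -1.66 to -0.98). SLC3A2, the heavy chain, was at 215 and 201 FPKM versus 151 and 144 FPKM (-0.50). SLC7A5 (LAT1), which exchanges large neutral amino acids, was at 331 and 334 FPKM versus 288 and 270 FPKM (-0.25), and its call was lost without either Control library (-0.26 and -0.25) and without the trend. In FPKM the ratio of SLC7A11 to SLC3A2 was 0.0461 and 0.0542 in Control, against 0.0195 and 0.0298 in siSIRT1, whereas that of SLC7A5 to SLC3A2 was 1.54 and 1.66 against 1.91 and 1.88.

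Estimates of the synthetases lay on both sides of 0. Of 18, 11 were called lower and 4 higher, beside 13.1% lower and 24.0% higher among all tested genes. The higher calls are near that share, and nothing is read from these counts. Summed over the 18, the level was 1448 and 1435 FPKM in Control, against 1222 and 1205 FPKM in siSIRT1. As a share of all FPKM in the library, this was 3.60 and 3.61 per mille against 2.87 and 2.95 per mille. IARS, for isoleucine, differed most, at 69.4 and 70.5 FPKM in Control, against 40.7 and 44.5 FPKM in siSIRT1 (log2 fold change -0.70). SARS, for serine, was at 105 and 104 FPKM versus 73.6 and 67.7 FPKM (-0.56). AARS, for alanine, was at 114 and 112 FPKM versus 80.5 and 84.9 FPKM (-0.45). In each of these 3 the gap between the groups was larger than the spread within them.

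A second tier lay between -0.36 and -0.31 on the log2 fold change scale, at 77.7% to 80.0% of Control. It held CARS, GARS, MARS, EPRS, LARS and NARS, the synthetases for cysteine, glycine, methionine, glutamate with proline, leucine and asparagine. The most abundant of these, GARS, was at 194 and 187 FPKM in Control, against 153 and 147 FPKM in siSIRT1. MARS was at 184 and 184 FPKM versus 146 and 141 FPKM, and CARS at 135 and 129 FPKM versus 105 and 101 FPKM. YARS, for tyrosine, stood at -0.26 and TARS, for threonine, at -0.19. Several of these calls missed the threshold when 1 library was left out, with estimates that moved by little. Without the first Control library those of GARS (-0.31), YARS (-0.28) and TARS (-0.15) were lost. Without the second, those of EPRS (-0.30), LARS (-0.28), NARS (-0.26), YARS (-0.25) and TARS (-0.23) were lost, and without the second siSIRT1 library that of TARS (-0.15). TARS also did not pass without the filter on low values or without the trend.

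Beside these, 3 synthetases did not pass. QARS, for glutamine, had a log2 fold change of -0.13 (interval -0.27 to 0.01), and it passed with median-of-ratios, quantile or equal-sum scaling. VARS, for valine, was at 94.1 and 91.0 FPKM in Control, against 88.7 and 90.3 FPKM in siSIRT1 (interval -0.18 to 0.08). WARS, for tryptophan, was at 35.9 and 34.8 FPKM versus 39.0 and 40.3 FPKM (0.16, interval 0.01 to 0.31), and its estimate with median-of-ratios scaling was 0.07.

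The 4 synthetases called higher were RARS, KARS, HARS and DARS, for arginine, lysine, histidine and aspartate. RARS was at 34.4 and 35.2 FPKM in Control, against 43.3 and 47.2 FPKM in siSIRT1, or 130% of Control (log2 fold change 0.37, interval 0.21 to 0.52). KARS was at 43.4 and 39.5 FPKM versus 54.6 and 53.2 FPKM, also 130% (0.37, interval 0.22 to 0.53). Both siSIRT1 libraries lay above both Control libraries in each. HARS was at 26.2 and 29.2 FPKM versus 33.6 and 35.1 FPKM (0.30), and DARS at 19.0 and 17.4 FPKM versus 22.4 and 21.0 FPKM (0.24). With median-of-ratios or quantile scaling the estimates kept their sign, and of the 4 only RARS and KARS passed. RARS alone of the 4 passed in every alternative that was run. The call for KARS was lost without the second Control library (0.31), that for HARS without the first (0.23), and that for DARS without the first (0.31), the second (0.18) or the first siSIRT1 library (0.20). DARS also did not pass without the filter on low values, without the trend or with equal-sum scaling.

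RARS, KARS and DARS belong to the multisynthetase complex, a cytosolic assembly of the products of 8 of these genes with scaffold proteins, and so do IARS, LARS, MARS, EPRS and QARS. Within the complex 4 of 8 were called lower and 3 higher (median -0.22), and outside it 7 of 10 lower and 1 higher (median -0.29). Estimates within the complex thus lay on both sides of 0. Among all tested genes 13.1% were called lower and 24.0% higher, and nothing is read from counts of so few genes. The ratio of RARS to IARS, both in the complex, was 0.496 and 0.500 in Control, against 1.06 and 1.06 in siSIRT1. That of KARS to AARS was 0.380 and 0.353 against 0.679 and 0.627. RARS and KARS have the highest estimates of the complex and IARS the lowest, and AARS was called lower. Each pair thus sets a gene called higher over one called lower, and nothing is read from the size of these ratios.

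**Figure D3:**
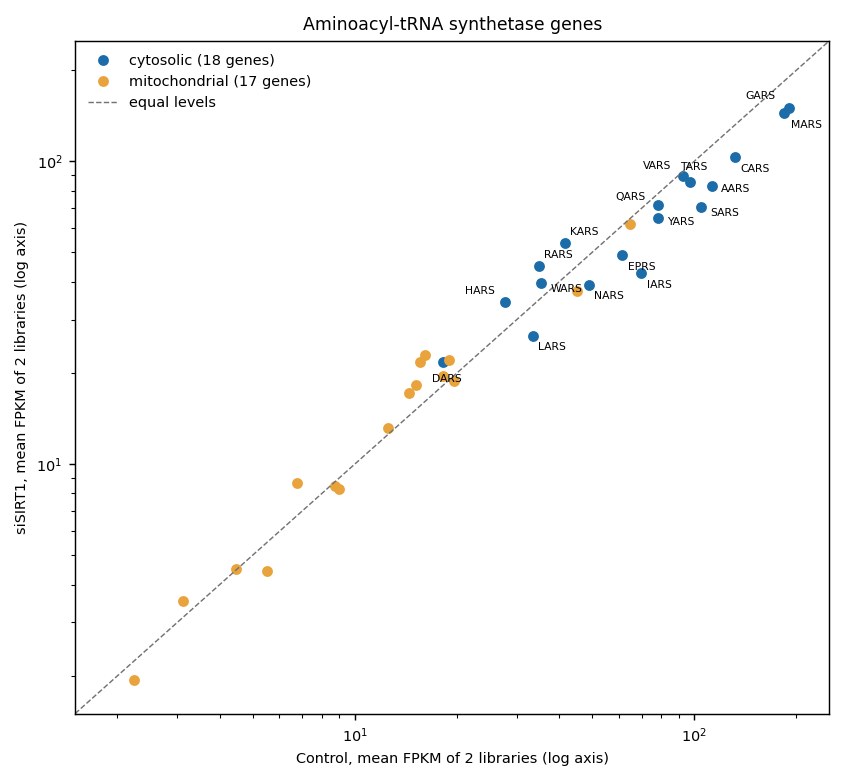
Mean FPKM of 2 Control libraries (horizontal, log axis) against mean FPKM of 2 siSIRT1 libraries (vertical, log axis) for 18 cytosolic and 17 mitochondrial synthetase genes; the dashed line marks equal levels and names are given for cytosolic genes. IARS, SARS and AARS lie furthest below the line, RARS, KARS, HARS, DARS and WARS lie above it, and the mitochondrial genes lie on both sides.

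Other genes of these pathways, taken from lists put together with earlier results of these data known, give the surroundings. Of 104 such genes 103 were in the tables and 92 were tested, of which 23 fell and 18 rose (limma, adjusted p under 0.05 over all genes), and their median log2 fold change was 0.02. Over all tested genes 13.1% fell and 24.0% rose, and these shares belong beside the counts of each list below. Since the lists were made with earlier results known, nothing is read from a difference between a list and these shares. The adjusted p-values concern single genes of lists so chosen. With median-of-ratios scaling the counts were 28 lower and 10 higher and the median was -0.07. Adjusted p-values below are limma's over all genes, and the largest value over the alternatives stands beside each as its upper end.

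Synthetases that serve mitochondria are encoded by separate genes in most cases, though the list used here holds none for glycine, lysine or glutamine. Of 17, 1 fell, 4 rose and 12 did not pass, the rises being near the 24.0% of all tested genes, and their summed level was 279 and 281 FPKM in Control, against 295 and 291 FPKM in siSIRT1. The median log2 fold change was 0.08, and -0.01 with median-of-ratios scaling. CARS2 rose from 16.1 to 22.9 FPKM (log2 fold change 0.48, adjusted p = 0.00338, upper end 0.0309), and VARS2 from 15.6 to 21.8 FPKM (0.46, adjusted p = 0.00174, upper end 0.0179). LARS2 rose by less (0.32, adjusted p = 0.0398, upper end 0.253). IARS2 fell, at -0.27 (adjusted p = 0.0111, upper end 0.129), so the ratio of IARS to IARS2 was 1.57 and 1.53 in Control, against 1.12 and 1.16 in siSIRT1. SARS to SARS2 was 1.59 and 1.64 against 1.15 and 1.13.

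Of the 6 further cytosolic synthetase genes and complex scaffolds, 2 rose and none (0) fell, and all 6 estimates were above 0 as deposited. The rises were those of FARSA, the catalytic subunit for phenylalanine (0.35, adjusted p = 0.015, upper end 0.0978), and TARS3, a paralog of TARS (0.34, adjusted p = 0.0494, upper end 0.235). In both, the adjusted p exceeded 0.05 in at least 1 alternative.

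The eIF2 list stands upstream of ATF4. Of 16 genes for eIF2, its kinases, its exchange factor eIF2B and its phosphatase, 4 rose, 1 fell and 11 did not pass, shares near or under the 24.0% higher and 13.1% lower among all tested genes, with a median log2 fold change of 0.20. EIF2B5, the catalytic subunit of eIF2B, rose from 15.1 to 21.0 FPKM (0.45, adjusted p = 0.00495, upper end 0.0459). EIF2AK2 (PKR), the kinase that senses double-stranded RNA, rose by 0.37 (adjusted p = 0.0413, upper end 0.192), with siSIRT1 values of 16.8 and 21.7 FPKM that differed between the libraries. EIF2B1 rose by 0.28 (adjusted p = 0.0343, upper end 0.255). IMPACT, an inhibitor of the kinase GCN2, fell from 4.94 to 3.45 FPKM (-0.42, adjusted p = 0.0226, upper end 0.135).

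Among 16 tested genes of the wider folate, glycine and methionine cycles, 5 rose and 1 fell. The fall was that of MAT2A, which makes S-adenosylmethionine, and it was large. MAT2A was at 438 and 442 FPKM in Control, against 195 and 199 FPKM in siSIRT1 (log2 fold change -1.16, adjusted p = 5.61e-06, upper end 0.00326). SFXN1, a mitochondrial serine transporter, rose from 39.4 to 54.1 FPKM (0.45, adjusted p = 0.00157, upper end 0.0196). AHCY, which clears S-adenosylhomocysteine, rose from 84.0 to 110 FPKM (0.38, adjusted p = 0.00121, upper end 0.0261).

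Of 14 tested amino acid transporters beyond the 3 above, 7 fell and 1 rose (median -0.24). SLC6A9, a glycine transporter, was at 23.8 and 21.5 FPKM in Control, against a mean of 10.2 FPKM in siSIRT1 (-1.08, adjusted p = 5.86e-05, upper end 0.00644). SLC38A2, which takes up small neutral amino acids, fell from 135 to 77.8 FPKM (-0.80, adjusted p = 0.000441, upper end 0.0192). SLC6A6, the taurine transporter, fell from 55.2 to 35.3 FPKM (-0.63, adjusted p = 0.000239, upper end 0.00923). SLC7A6, a light chain that pairs with SLC3A2, rose from 11.7 to 17.9 FPKM (0.57, adjusted p = 0.00413, upper end 0.0401).

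The list nearest to the 43 is that of other ATF4-linked genes, of which 12 of 19 tested fell, 1 rose and 6 did not pass (median -0.57). PCK2, the mitochondrial PEP carboxykinase, fell from 46.6 to 16.2 FPKM (-1.47, adjusted p = 5.23e-06, upper end 0.00341). GDF15, a secreted stress cytokine, was at 568 and 536 FPKM in Control, against 234 and 233 FPKM in siSIRT1 (-1.24, adjusted p = 5.61e-06, upper end 0.00359). VEGFA, an angiogenic growth factor that ATF4 shares with the hypoxia response, fell from 58.8 to 31.2 FPKM (-0.89, adjusted p = 3.63e-05, upper end 0.00507). The 1 rise was that of CEBPD, a C/EBP factor, from 5.18 to 8.51 FPKM (0.63, adjusted p = 0.00444, upper end 0.0392).

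Of 4 tested genes for glutathione synthesis and cysteine catabolism, 1 rose and 1 fell. MPST, which transfers sulfur from mercaptopyruvate, rose by 0.39 (adjusted p = 0.0114, upper end 0.118), and GCLM, the modifier subunit of glutamate-cysteine ligase, fell, at -0.29 (adjusted p = 0.0496, upper end 0.259). Neither stayed under 0.05 in every alternative.

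The letters TGATGNAA were also looked up in the promoter windows of these 7 lists, and their holders did not share a direction. Among amino acid transporters 4 of 17 genes with a window held them, SLC1A4, SLC1A5, SLC7A1 and SLC38A1, and all 4 were called lower, with log2 fold changes of -0.56, -0.36, -0.51 and -0.59. Among ATF4-linked genes 4 of 15 held them. Of these GOT1 was called lower (-0.66), ATF3 (0.04) and JDP2 (0.29) did not pass, and FGF21, at 0.580 FPKM in Control, was too low to be tested. In each of 3 more lists, 1 of 14 genes with a window held them, YARS2 among mitochondrial synthetases, which was called higher (0.26), PPP1R15B in the eIF2 list (-0.24, not called) and MTHFD1L among folate genes (-0.19, not called). In the scaffold and glutathione lists 0 of 5 and 0 of 2 held them.

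**Figure D4:**
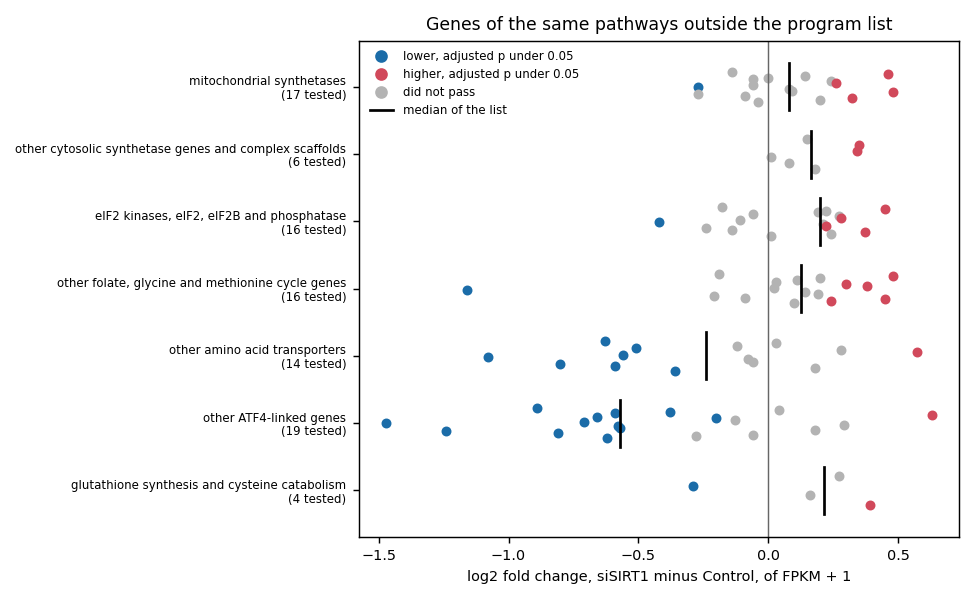
Log2 fold change of FPKM + 1, siSIRT1 minus Control (horizontal axis), for the 92 tested genes of the 7 lists outside the 43; blue points fell, red points rose (limma, adjusted p under 0.05), grey points did not pass, and black lines are list medians. The medians of the ATF4-linked genes (-0.57) and the amino acid transporters (-0.24) lie below 0, and those of the other 5 lists lie between 0.08 and 0.22; with median-of-ratios scaling that of the mitochondrial synthetases is -0.01.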

How the data were processed

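RNA-seq of total RNA from PANC-1 cells gave 4 libraries, 2 Control and 2 siSIRT1. The authors deposited 1 table per library of FPKM values for 16878 genes. The submitters' processing notes list Bowtie2, HISAT, RSEM and ChIPseeker without roles. The genome build, the strand setting and the handling of reads shared by near-identical genes are not given in the sources used here. Calendar dates stood in place of 26 symbols, and 16846 identifiers were matched to RefSeq symbols.

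From the deposited FPKM, log2(FPKM + 1) was fitted with limma 3.58.1 (R 4.3.3, eBayes with trend) for the 12191 genes averaging 1 FPKM or more, two-sided, with Benjamini-Hochberg adjustment at 0.05. Fold changes on this scale understate low genes. Depth was estimated from steps of 1 read in 52 to 74 single-exon genes per library, and reads behind a gene are approximate and cover counting error only. Tables were handled with pandas 2.3.3 and drawn with matplotlib 3.10.9.

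The 43 genes and all lists were chosen with earlier results of these data known. For the 43, estimates are therefore descriptions without p-values. All 43 and SIRT1 were eligible to be named, and in each other list up to 3 of the largest rises and 3 of the largest falls past the threshold. The motif holders of the other lists were named after their values were seen, and so were SHMT1, MTHFD1 and SARS2 as partners in ratios. Alternatives were a pseudocount of 0.1, no filter, quantile, median-of-ratios and equal-sum scaling, eBayes without trend, the replicate number as a block, each library left out, and other motif letters. CDO1, INS, GCG and SST were not analysed here. One gene that this rule would name is not reported here.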

Additional observations from a re-analysis of the deposited data

How the results depend on the processing

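All 43 genes kept the sign of their log2 fold change in all 11 alternatives of the fit. Of the 37 calls among the 43, 33 remained in number without the trend and 33 without the filter, and 25 to 35 when 1 library was left out. Calls higher in the 43 numbered 4, but 2 with quantile normalization and 2 with median-of-ratios scaling, and 2 to 4 with 1 library left out. In the other pathway genes the 18 calls higher became 10 with quantile normalization, 10 with median-of-ratios scaling and 11 with equal FPKM sums, and 9 to 18 with 1 library left out, while all their calls, 41, ranged from 27 to 39. Over all genes 4521 calls became 2691 to 4608 with 1 library left out, lowest without the second Control library and 2744 without the first. Where a library is left out, the lone library of its group is assumed to vary like the others. The median Control level of the 43 was 63.3 FPKM with median-of-ratios scaling against 61.5. The promoter letters were found in 11 genes, in 2 as TGATGNAAT and in 0 as TGACGNAA. The cause of these differences was not tested.

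The labels number the libraries 1 and 2 in both groups, but 2 pairs and a correlation of 0.123 between same-numbered deviations do not establish pairing. With these numbers fitted as a replicate block, 5393 calls were made over all genes, 37 among the 43 and 51 among the other pathway genes, 26 lower and 25 higher. At 8840000 to 9350000 reads per library, VLDLR, ALDH1L2 and CTH rest on the fewest reads of the 43, and depth limits these most.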
